A study of Mus musculus with 6 samples.

Results

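The numbered Zfp genes are the rows of the deposited table whose symbol is Zfp followed only by digits, leaving out Zfp57. They numbered 239 of 10896 genes, and the rule itself uses symbols, not measured values, although it was set with earlier results of these data known. The series measured RNA by sequencing in mouse oocytes at the germinal vesicle stage, the full-grown stage before meiosis resumes. In the in vitro group, 3 samples of 50 oocytes had grown inside follicles isolated with collagenase from (C57BL x CBA) F1 females 10 to 12 days old and cultured on membrane inserts with serum, insulin, transferrin, selenium and FSH. In the in vivo group, 3 samples of 50 oocytes were released by needle, in a medium with dbcAMP, from ovaries of F1 females 7 to 11 weeks old. For culture, follicles of several females were isolated together. Culture cannot be told apart from donor age, or from how and in what medium the follicles or oocytes were isolated, in any comparison. The labels do not say whether separate cultures or animals gave the samples of a group, so p-values measure only the spread between these samples. In bulk samples such as these, fewer cells of a type and less RNA per cell cannot be told apart.

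Zinc finger proteins of the C2H2 type read DNA with a row of short folds, each held around a zinc ion by cysteines and histidines and joined to the next by a conserved linker. Many in mouse carry a KRAB box near the N-terminus, which recruits the co-repressor TRIM28. TRIM28 brings in the histone methyltransferase SETDB1, heterochromatin proteins and the NuRD complex, which silence retrotransposons and protect imprints in the early embryo. Other numbered Zfp genes carry no KRAB box and encode RNA-binding proteins, a ribosome quality-control ligase or activators of transcription. Maternal stores of such proteins are laid down as the oocyte grows.

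Coding sequences of GENCODE M21 (build GRCm38) were found for 238 of the 239 genes. A search found a KRAB box in 142 of them and none in 96. Such a search can miss a box, so genes described below as without a KRAB box are those where none was found. The number of C2H2 fingers had a median of 11 and reached 36, in Zfp142. No finger of the searched pattern was found in 7 genes, among them Zfp36, whose RNA-binding fingers are of another type. Fingers of 5 of the 6 genes called by limma voom on reads per library (described below) are shown because they are what these genes have in common by their name. In each, capitals mark the codons of the cysteines and histidines matched by the searched pattern, and the last codons encode the linker to the next finger. The first finger with a linker of the coding strand read as follows, 5′ to 3′.
Zfp408: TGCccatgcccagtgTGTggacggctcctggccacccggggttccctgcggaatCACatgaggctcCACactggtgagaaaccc
Zfp850: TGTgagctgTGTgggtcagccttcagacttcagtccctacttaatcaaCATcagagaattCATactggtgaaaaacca
Zfp583: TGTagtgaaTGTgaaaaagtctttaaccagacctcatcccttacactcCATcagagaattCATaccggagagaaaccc
Zfp933: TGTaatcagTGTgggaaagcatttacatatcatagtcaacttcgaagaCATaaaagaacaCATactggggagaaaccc
Zfp740: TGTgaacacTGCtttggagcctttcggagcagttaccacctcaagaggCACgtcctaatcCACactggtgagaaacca
Zfp408 lies on chromosome 2, Zfp850 and Zfp583 on chromosome 7, Zfp933 on chromosome 4 and Zfp740 on chromosome 15. The linker codons differ in spelling among the 5 genes, while the spacing of the marked codons is the same in Zfp850, Zfp583, Zfp933 and Zfp740. In Zfp408 the marked cysteine codons lie further apart because the match began at an earlier cysteine. An unmarked tgc codon of Zfp408 stands as far from the marked TGT as the paired cysteine codons do in the other genes.

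In reads per gene the numbered Zfp genes had a median close to that of all genes, while per kilobase it was lower. The authors' deposited table gives 1 mean of normalised reads per group, with no spread. The mean over both groups had a median of 136 normalised reads for numbered Zfp genes and 134 for all genes. Per kilobase of the deposited gene length, the median was 34.6 normalised reads in vitro and 34.3 in vivo, against 47.6 in vitro and 45.7 in vivo for all genes. No numbered Zfp gene was listed at 0 in a group. Zfp655, a KRAB-lacking gene by the search used, led on both scales, with authors' means of 6464 in vitro and 6634 in vivo. Per kilobase, 1791 normalised reads were counted in vitro and 1839 in vivo. Zfp296, a partner of pluripotency factors in embryonic stem cells, followed per kilobase, with 1632 in vitro and 1505 in vivo. Zfp58, a KRAB gene, had 1057 normalised reads per kilobase in vitro and 868 in vivo. Zfp932, whose protein silences endogenous retroviruses, had 707 in vitro and 788 in vivo. Zfp750, which in skin drives epidermal differentiation, had 752 normalised reads per kilobase in vitro and 731 in vivo. Each of these 5 differed by less than 1.5-fold between groups, and none was called. Across the 239 genes, the Spearman correlation of the 2 group means was 0.973. This is a description over genes, which are not replicates.

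The typical numbered Zfp gene had nearly the same level in oocytes from culture and from the ovary. A gene was called where the PPEE of the authors' deposited table, read as the posterior probability of equal expression, was below 0.05. A PPEE is not a p-value, and no source used here names the tool behind it. By this rule 28 of 239 numbered Zfp genes (11.7%) were called, against 15.1% of all genes. Of these, 14 were higher in vitro, where 6.75% of all genes were called higher. The other 14 were lower in vitro, where 8.31% of all genes were called lower. The median log2 change of in vitro over in vivo was 0.04 for the numbered Zfp genes and 0.02 for all genes, with an SD across genes of 0.58 and 0.63. The change was positive for 127 genes and negative for 112. A difference of at least 2-fold between the authors' means was seen for 20 numbered Zfp genes (8.37%, against 11.1% of all genes), and 11 of these 20 were not called. The authors' deposited table lists a PPEE of exactly 1 for 36 numbered Zfp genes (15.1%, against 14.9% of all genes), and 5 of them are among these 11. One of the 5, Zfp710, named after its values were seen, had 14.7, 21.8 and 14.9 normalised reads in 3 libraries recovered in vitro, against 3.23, 7.09 and 4.52 in vivo. These libraries did not overlap, and its limma voom adjusted p was 0.0696.

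**Figure D1:**
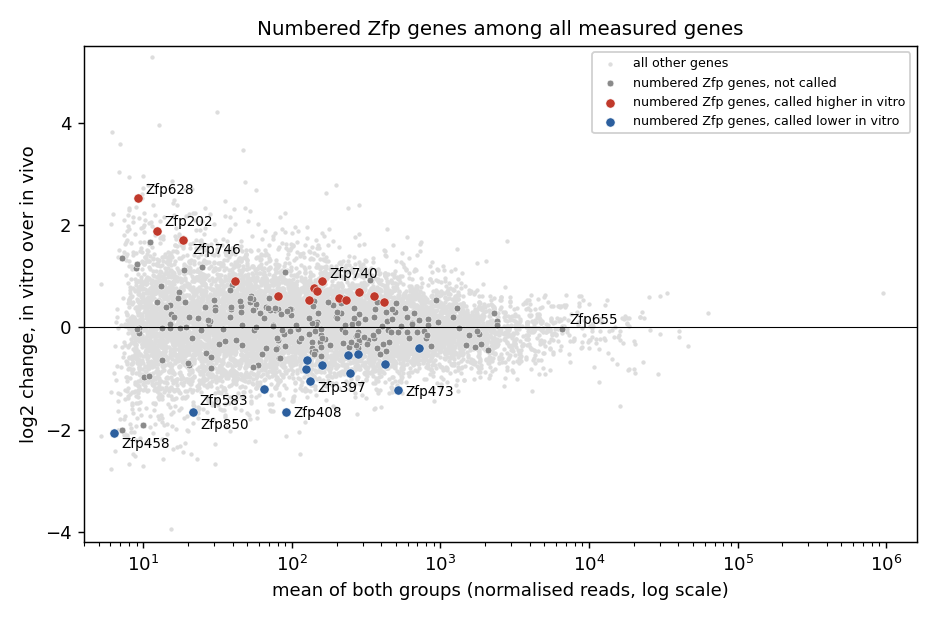
Log2 change of in vitro over in vivo (vertical axis) against the mean of both groups in normalised reads (horizontal log axis) for the 239 numbered Zfp genes and, in pale grey, all other genes of the deposited table. Red points are the 14 called higher and blue points the 14 called lower in vitro; changes of called genes run from -2.07 for Zfp458 to 2.53 for Zfp628, and the most abundant gene, Zfp655, lies at -0.04.

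The share of genes called varied with level. Among numbered Zfp genes with a mean of 100 to 300 normalised reads, 14 of 67 (20.9%) were called, against 15.9% of all genes in that range. With means of 300 to 1000, 5 of 49 were called, against 21.9% of all genes. Above 1000 none of 14 was called, against 24.2% of all genes. Below 30, 5 of 47 were called, against 5.49% of all genes, and between 30 and 100 it was 4 of 62, against 12.0% of all genes. The numbered Zfp genes with the largest stores in the oocyte were thus without a call by the authors' deposited table. Nearest to the threshold on the called side were Zfp90 at 0.0336, Zfp472 at 0.0388 and Zfp618 at 0.0394, by the PPEE of the authors' deposited table. On the other side stood Zfp600 at 0.0582, Zfp619 at 0.0593 and Zfp521 at 0.0720.

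Genes called lower in vitro included Zfp408, Zfp473, Zfp583 and Zfp397. By the authors' deposited table the mean of Zfp473 was 308 in vitro and 723 in vivo, 2.35-fold lower in vitro with a listed PPEE of 0. Its human ortholog belongs to the U7 particle that processes the ends of replication-dependent histone messages. Its means lie above 300, where reads per library were not solved, so no spread can be given. For 149 numbered Zfp genes with means up to 300 in both groups, whole reads of 3 libraries per group were recovered from the group means. These libraries are named A, B and C by size factor, and nothing ties them to the sample numbers of the labels. Over the 6675 genes recovered in all, the libraries held 578757, 563614 and 445534 reads in vitro and 665234, 599802 and 463289 in vivo.

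Limma voom on these reads called 5 numbered Zfp genes lower and 1 higher in vitro at a Benjamini-Hochberg adjusted p below 0.05. Of all recovered genes, 3.36% were called lower and 3.73% higher, and 7.09% either way. At an unadjusted p below 0.05, 36 of the 149 passed (24.2%, against 27.4% of all recovered genes). All 6 genes were also called by the authors' PPEE, which rests on the same samples.

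Zfp408, a gene of the PRDM group whose human ortholog is mutated in inherited retinal disease, had 42.3, 35.2 and 53.3 normalised reads in libraries A, B and C in vitro, against 151, 136 and 126 in the in vivo libraries. All in vitro libraries lay below all in vivo libraries, by a gap wider than the spread in either group. It averaged in vitro 43.6 ± 9.13 and in vivo 138 ± 12.4 normalised reads (SD, n = 3 libraries each), and the fitted log2 change was -1.69 with a standard error of 0.26 and an adjusted p of 0.00509 by limma voom. Zfp408 alone of the 6 kept an adjusted p below 0.05 in all 11 alternative fits, where the limma adjusted p ranged from 0.000882 to 0.0404.

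Zfp583, a KRAB gene, had 41.4, 35.2 and 40.9 normalised reads in vitro, against 86.5, 78.8 and 107 in vivo, without overlap (limma voom log2 change -1.18, standard error 0.27, adjusted p 0.0232). Zfp397, whose human ortholog has been placed at centromeres, had 109, 66.3 and 81.9 normalised reads in vitro and 175, 198 and 160 in vivo (limma voom log2 change -1.07, standard error 0.23, adjusted p 0.0175). Zfp933, a KRAB gene, had 126, 99.5 and 132 normalised reads in vitro, against 187, 190 and 219 in vivo (limma voom log2 change -0.73, standard error 0.20, adjusted p 0.0384). In all 3 genes every in vitro library was below every in vivo library.

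Zfp850, another KRAB gene, rested on few reads, 6, 7 and 14 in libraries A, B and C in vitro against 57, 37 and 18 in vivo. Normalised, the in vitro libraries stood at 5.51, 7.26 and 17.4 and the in vivo libraries at 46.1, 32.8 and 20.3, so that library C of both groups came close. The limma voom log2 change was -1.88 with a standard error of 0.53 and an adjusted p of 0.0463. The authors' means were 3.29-fold lower in vitro. In the recovered reads, with 1 library left out at a time, the fall ranged from 2.64-fold without in vivo library A to 5.18-fold without in vitro library C. Zfp408 was the only one of the 5 lower genes past the threshold when in vitro library B, in vitro library C, in vivo library A or in vivo library B was left out. Zfp397 and Zfp850 also passed without in vivo library C.

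The single gene called higher by limma voom was Zfp740, with only 2 fingers of the searched pattern and no KRAB box found. It had 177, 231 and 217 normalised reads in libraries A, B and C in vitro, against 119, 106 and 110 in vivo, without overlap. The fitted log2 change was 0.88 with a standard error of 0.20 and a limma adjusted p of 0.0208. It missed the threshold without in vitro library C and without any 1 of the in vivo libraries, with a highest adjusted p of 0.113 over its 10 alternatives by limma.

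**Figure D2:**
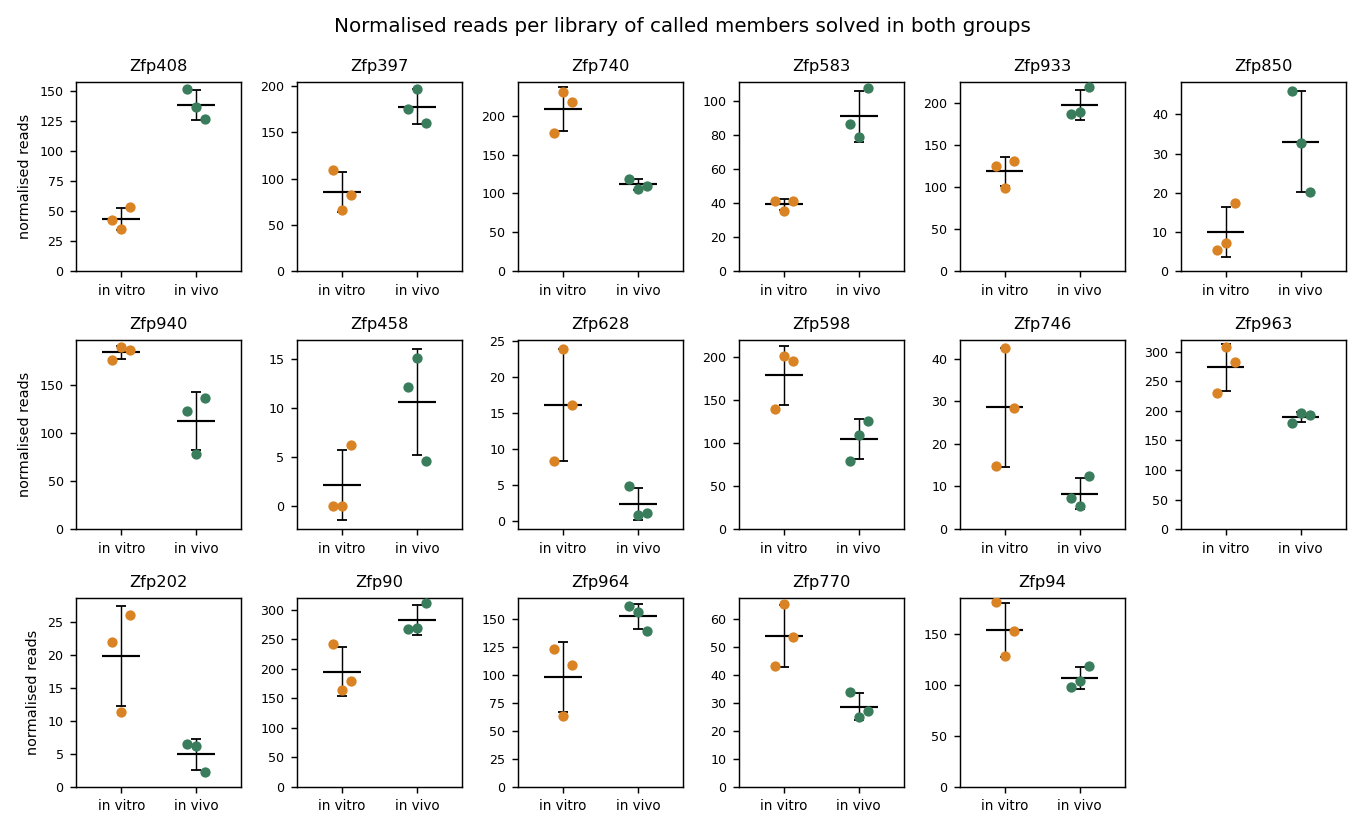
Normalised reads (vertical axes, from 0 or below) in each recovered library for the 17 called numbered Zfp genes solved in both groups, in vitro left and in vivo right, with points for libraries A, B and C from left to right, a bar at the mean and whiskers of 1 SD (n = 3 libraries). In 16 of the 17 genes the groups do not overlap, while Zfp458 has libraries at 6.20 in vitro and 4.52 in vivo. The genes were called from the same samples, so the separation is no independent support.

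Among all 149 recovered genes, libraries did not overlap in 28 genes that were higher and 19 that were lower in vitro. The same held for 17.0% of all recovered genes upward and 14.6% downward, so the counts stood near the background. Of the 17 called genes among the 149, 9 were higher and 7 lower without overlap, and 1 overlapped. The calls rest on these same samples, so separate libraries in called genes are no independent support for the calls. The remaining 11 called genes have only the authors' group means. Within groups, the numbered Zfp genes with means of at least 30 had a median coefficient of variation over libraries of 17.3% in vitro (n = 108) and 16.1% in vivo (n = 105), against 20.8% in vitro and 15.6% in vivo for all genes.

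Of all 14 genes called lower in vitro by the authors' deposited table, 10 carry a KRAB box, as do 142 of the 238 genes with a coding sequence. Zfp109 had authors' means of 172 in vitro and 319 in vivo, and Zfp534 of 320 in vitro and 528 in vivo. Zfp937 was 1.76-fold lower in vitro by the authors' means. Zfp964 had 123, 63.2 and 109 normalised reads in libraries A, B and C in vitro and 162, 157 and 140 in vivo, without overlap, but its limma adjusted p was 0.0878. Zfp90 had 242, 164 and 180 normalised reads in vitro and 268, 268 and 312 in vivo, also without overlap, with a limma adjusted p of 0.0797. Zfp618, whose human ortholog partners the hydroxymethylcytosine reader UHRF2, had authors' means of 228 in vitro and 328 in vivo. Zfp781 had authors' means of 621 in vitro and 821 in vivo, but its whole coding sequence is also found in other genes, as described below.

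Genes called higher in vitro included several with few reads and a large fold. Zfp202, whose human ortholog represses genes of lipid metabolism, had 22.1, 11.4 and 26.1 normalised reads in libraries A, B and C in vitro, against 6.47, 6.20 and 2.26 in vivo. Zfp746, a target of the ubiquitin ligase parkin, had 14.7, 42.5 and 28.5 normalised reads in vitro, against 7.28, 5.31 and 12.4 in vivo. Neither gene overlapped between groups. In the authors' deposited table Zfp202 was 3.99-fold higher in vitro with a PPEE of 0.00216, and Zfp746 3.43-fold higher with a PPEE of 0.0335. The limma voom adjusted p was 0.0758 for Zfp202 and 0.0696 for Zfp746.

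Zfp628 and Zfp458, outside the rule for named genes because their means over both groups lie below 10, were added after their values were seen. Zfp628 had 9, 23 and 13 reads in libraries A, B and C in vitro, against 6, 1 and 1 in vivo. It was 7.03-fold higher in vitro by the authors' means, the largest called rise of the 239 genes (limma voom adjusted p 0.0535). In the recovered reads, with 1 library left out at a time, the rise ranged from 5.33-fold without in vitro library B to 16.0-fold without in vivo library A. Zfp458 had 0, 0 and 5 reads in vitro, against 15, 17 and 4 in vivo. Its 5.11-fold lower mean in vitro in the authors' deposited table rests on 1 in vitro library, and the other 2 held no read.

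At moderate levels the called rises were smaller. Zfp598, the ubiquitin ligase that marks collided ribosomes, had 140, 201 and 196 normalised reads in vitro, against 79.2, 110 and 125 in vivo, 1.71-fold higher by the authors' means (limma voom adjusted p 0.0539). Zfp940, a KRAB gene, had 176, 189 and 186 normalised reads in vitro and 123, 77.9 and 136 in vivo, 1.64-fold higher by the authors' means (limma voom adjusted p 0.0505). Zfp770 had 43.2, 65.3 and 53.3 normalised reads in vitro, against 34.0, 24.8 and 27.1 in vivo (limma voom adjusted p 0.0881). All 3 genes were higher in every in vitro library than in any in vivo library, yet none passed the adjusted threshold.

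Zfp568, the KRAB protein that represses a placental promoter of Igf2 in the mouse embryo, had an authors' mean of 349 in vitro and 217 in vivo. In the authors' deposited table it was 1.61-fold higher in vitro, with a PPEE of 5.82e-08. Its in vivo libraries A, B and C held 244, 229 and 178 normalised reads, while its in vitro reads were not solved. Zfp553 had authors' means of 431 in vitro and 283 in vivo, Zfp260 of 246 in vitro and 166 in vivo, and Zfp947 of 97.1 in vitro and 63.3 in vivo. Zfp963, Zfp94 and Zfp472 were 1.44-fold, 1.44-fold and 1.42-fold higher in vitro by the means of the authors' deposited table.

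**Figure D3:**
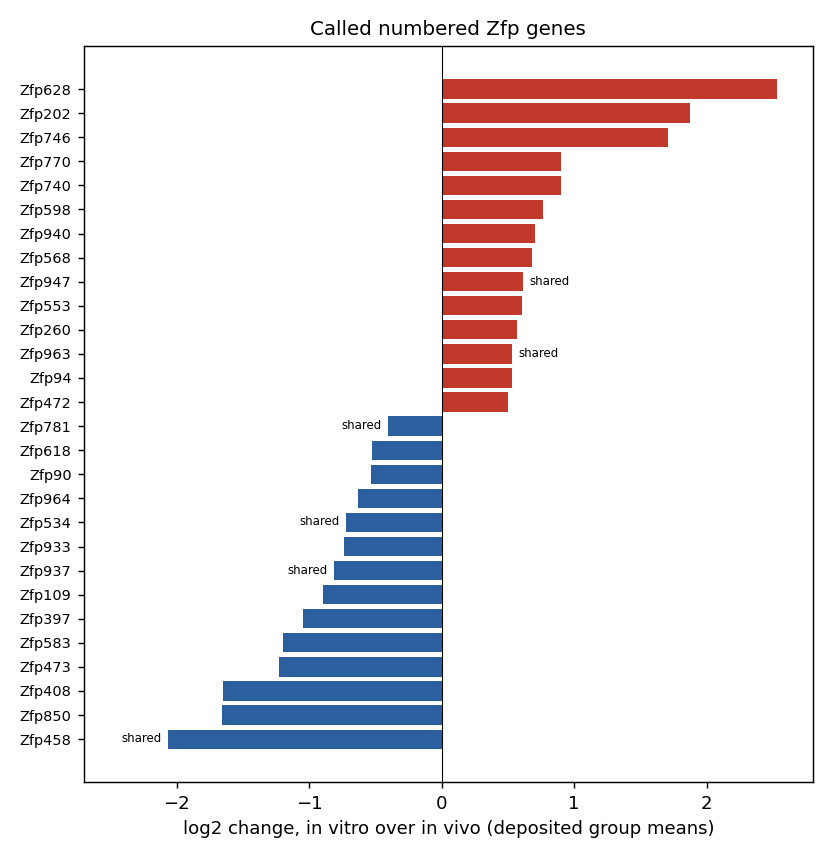
Log2 change of in vitro over in vivo from the deposited group means (horizontal axis) for the 28 called numbered Zfp genes, red higher and blue lower in vitro; the means carry no error. The word shared marks the 6 genes with at least 5% of their 50-base coding runs in another gene.

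By known role, each of 4 lists held 1 called gene, where 15.1% of all genes were called. Of the genes with a role in silencing repeats or imprints, 8 of 9 listed were measured and 1 was called, Zfp568, higher in vitro. Zfp809, which silences murine leukemia virus and related elements, averaged in vitro 34.1 ± 5.99 and in vivo 34.9 ± 5.69 normalised reads (SD, n = 3 libraries each). Zfp445, which protects imprints, averaged in vitro 155 ± 23.2 and in vivo 181 ± 23.9 normalised reads (SD, n = 3 libraries each). For both genes the difference was smaller than or close to the spread between libraries, with limma voom adjusted p-values of 0.960 and 0.501. The median log2 change of the 8 was 0.01.

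Of the RNA and translation genes, 8 of 12 listed were measured and 1 was called, Zfp598, higher in vitro. Zfp36, which promotes decay of messages with AU-rich elements, averaged in vitro 15.2 ± 5.68 and in vivo 25.6 ± 4.66 normalised reads (SD, n = 3 libraries each, limma voom adjusted p 0.252). Zfp318 averaged in vitro 123 ± 44.0 and in vivo 57.3 ± 25.8 normalised reads (SD, n = 3 libraries each, limma voom adjusted p 0.0615). Zfp207, a spindle assembly factor, had authors' means of 1453 in vitro and 1120 in vivo. Of the pluripotency and early embryo genes, 6 of 8 listed were measured and 1 was called, Zfp202, higher in vitro, whose known role in human is in lipid metabolism. Zfp42, the pluripotency marker Rex1, had authors' means of 14.9 in vitro and 15.1 in vivo. Of the chromatin and signalling genes without a KRAB box, 20 of 26 listed were measured and 1 was called, Zfp740, higher in vitro. Of the 14 recovered genes of this list, 7 were higher in vitro without overlap of libraries and 0 lower. The shares of all recovered genes were 17.0% higher and 14.6% lower. Among the 68 recovered numbered Zfp genes without a KRAB box, 19 were higher and 6 lower without overlap. Limma voom called 1 of the 14. The medians of these 3 lists were 0.23, 0.24 and 0.25 on the log2 scale.

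The partners of KRAB proteins were all measured, 30 of 30 listed genes. Genes called higher in vitro included Sumo2, a SUMO modifier, and Atrx, part of a histone H3.3 loader. Called lower were the methyltransferase Suv39h1 and the SUMO ligase Pias1. By the authors' deposited table Sumo2 was 1.26-fold and Atrx 1.17-fold higher, while Pias1 was 1.17-fold and Suv39h1 1.37-fold lower in vitro. Trim28 itself had authors' means of 804 in vitro and 294 in vivo and was not called, the PPEE of the authors' deposited table being 0.159. Setdb1 had authors' means of 1534 in vitro and 1659 in vivo.

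Genes with and without a KRAB box differed in their typical change. The median log2 change was -0.04 for the 142 KRAB genes and 0.20 for the 96 others, beside 0.02 for all genes. Calls were 8 higher and 10 lower among KRAB genes, and 6 higher and 4 lower among the others. These are 12.7% of KRAB genes and 10.4% of the others, both below the 15.1% of all genes. In recovered libraries, as log2 values relative to the in vivo mean of each gene (for an in vivo library, the mean of the other 2), the median of KRAB genes (n = 81) was -0.03, -0.17 and 0.05 in libraries A, B and C in vitro, and -0.13, 0.07 and -0.02 in vivo. That of genes without a KRAB box (n = 68) was 0.16, 0.26 and 0.31 in vitro, and -0.05, 0.02 and -0.01 in vivo. Over all recovered genes the in vitro medians were 0.00, 0.09 and 0.03. For genes without the box the in vitro libraries thus lay above the in vivo ones, and for KRAB genes they overlapped. Base composition moved with the box: the median GC content of the coding sequence was 42.8% in KRAB genes and 53.5% in the others, and the median number of fingers 12 and 7. Across the numbered Zfp genes the Spearman correlation with the log2 change was 0.25 for GC content and -0.20 for finger number (n = 238 genes, a description). Over all genes it was 0.08 for GC content. Within each class it was weaker, 0.15 for GC content and -0.13 for finger number in KRAB genes (n = 142). In the others (n = 96) it was 0.16 for GC content and -0.11 for finger number. The part of base composition in the difference was not tested.

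**Figure D4:**
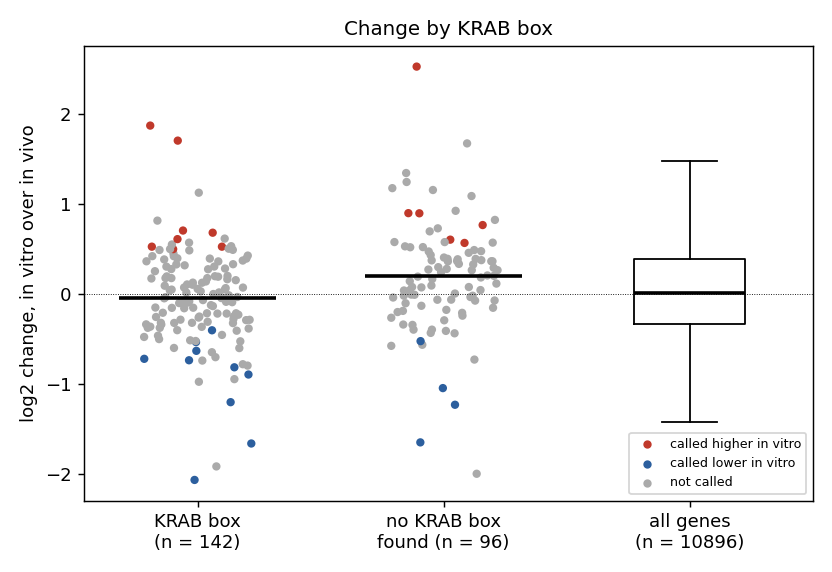
Log2 change of in vitro over in vivo (vertical axis) for the numbered Zfp genes, 142 with a KRAB box and 96 with none found. Black bars mark the medians of -0.04 and 0.20. Beside them stands a box of all 10896 genes (quartiles, with whiskers to the last value within 1.5 interquartile ranges and outliers not drawn). Called genes are red where higher and blue where lower in vitro, and the points of both classes overlap over most of their range.

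Reads of many numbered Zfp genes could be shared with near-identical relatives. Of 238 genes, 38 (16.0%) had at least 5% of their 50-base coding runs in another gene, against 4.84% of other genes. Among means up to 300, no whole number of reads solved 18 of 177 numbered Zfp genes in vitro (10.2%, against 4.73% of all genes) and 12 of 173 in vivo (6.94%, against 4.45%). The 18 genes with means up to 300 in both groups that were not whole in a group shared a median of 17.1% of their runs. The 149 genes solved in both shared a median of 0. How the authors' counting treated reads that fit more than 1 gene is not given in the sources used here, so values of sharing genes are uncertain. The 6 called genes with at least 5% shared were Zfp458, Zfp534, Zfp781 and Zfp937, lower in vitro, and Zfp947 and Zfp963, higher. Without the sharing genes, 12 numbered Zfp genes were called higher and 10 lower.

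**Figure D5:**
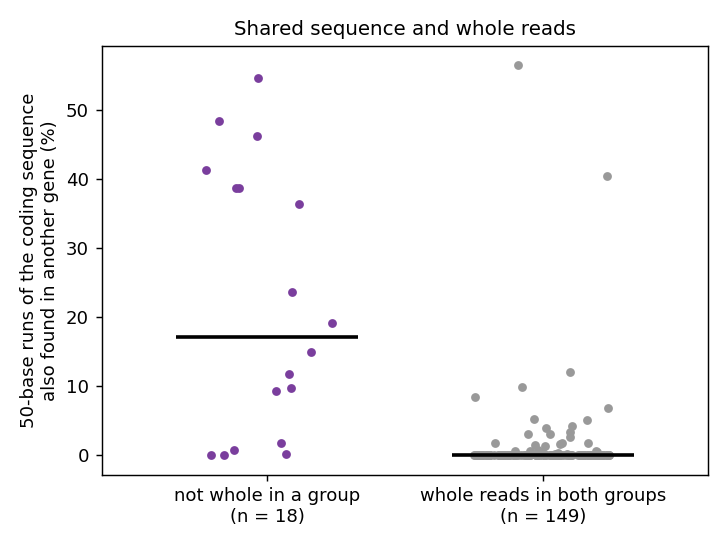
Percent of 50-base runs of the coding sequence that are also found in another gene (vertical axis), for the 18 numbered Zfp genes with means up to 300 in both groups whose mean was not a sum of whole reads in a group and the 149 solved once in both groups; black bars are medians, 17.1 and 0. Both classes hold genes at 0, and 13 of the 18 but 8 of the 149 share at least 5%.

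The longest identical stretches of 2 pairs are shown because a short read from them cannot be placed in 1 gene. Capitals mark the bases that are identical in both genes of the pair, and lower case the bases beside them on the coding strand. Zfp963 and Zfp964 lie in the same run of 5 neighbouring numbered Zfp genes on chromosome 8 and share the first 106 bases of their coding sequences.
Zfp963: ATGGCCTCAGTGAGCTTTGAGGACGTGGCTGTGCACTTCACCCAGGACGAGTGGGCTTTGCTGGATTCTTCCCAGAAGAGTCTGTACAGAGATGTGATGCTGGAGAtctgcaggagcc
Zfp964: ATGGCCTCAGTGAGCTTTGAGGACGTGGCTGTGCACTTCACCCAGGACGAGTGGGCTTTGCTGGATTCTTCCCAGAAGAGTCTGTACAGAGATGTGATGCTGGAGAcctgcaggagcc
Zfp963 was called higher in vitro, with 231, 308 and 283 normalised reads in vitro against 180, 196 and 193 in vivo, while Zfp964 was called lower. These 2 genes of the run, with Zfp869 between them, thus moved in opposite directions in the authors' deposited table. Neither passed in limma voom (adjusted p 0.0721 for Zfp963). Zfp963 shares 40.4% of its runs, most of them with Gm20422, and Zfp964 shares 4.16%. Zfp937, called lower in vitro, and Zfp442, on chromosome 2, share 271 bases in a row within their fingers.
Zfp937: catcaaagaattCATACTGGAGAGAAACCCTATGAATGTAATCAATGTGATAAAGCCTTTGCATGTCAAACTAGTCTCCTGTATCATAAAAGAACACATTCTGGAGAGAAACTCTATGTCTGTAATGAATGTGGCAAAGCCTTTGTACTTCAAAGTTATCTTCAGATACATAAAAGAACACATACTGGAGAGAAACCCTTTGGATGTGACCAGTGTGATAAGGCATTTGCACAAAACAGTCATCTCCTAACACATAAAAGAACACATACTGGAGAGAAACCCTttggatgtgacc
Zfp442: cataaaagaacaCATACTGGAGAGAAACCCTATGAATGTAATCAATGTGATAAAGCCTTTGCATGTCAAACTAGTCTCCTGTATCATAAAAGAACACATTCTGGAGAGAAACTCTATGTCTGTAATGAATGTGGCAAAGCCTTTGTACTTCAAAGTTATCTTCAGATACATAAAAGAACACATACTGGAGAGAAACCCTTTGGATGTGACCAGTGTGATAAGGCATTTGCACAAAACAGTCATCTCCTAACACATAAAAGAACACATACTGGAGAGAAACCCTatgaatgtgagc
Zfp442 had authors' means of 239 in vitro and 316 in vivo and was not called. For neither gene could reads per library be solved in both groups.

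Numbered Zfp genes often neighbour each other. In the RefSeq order of protein-coding genes, 91 of them stood in 31 runs of at least 2, the longest of 7 genes, and 12 of the 28 called genes lay in runs. The run of 7 held Zfp940 and Zfp568, both called higher in vitro, while its gene Zfp790 had a log2 change of -0.45 and was not called. A run of 6 held Zfp109, called lower in vitro, and Zfp94, called higher. The 4 genes Zfp667, Zfp583, Zfp78 and Zfp28 had log2 changes of -0.32, -1.20, -0.46 and -0.40, of which only that of Zfp583 was called. Of 60 pairs of neighbouring numbered Zfp genes, 34 (56.7%) changed in the same sign, against 51.8% of 6349 other pairs of neighbours.

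The oocyte label fitted its markers. All 12 listed oocyte markers were measured, with authors' means that summed to 140528 normalised reads in vitro and 185102 in vivo. The lowest of the 12 means was 477 in vitro and 90.5 in vivo, so the marker lowest in vivo was higher in vitro. Bmp15 and Nlrp5 were called lower in vitro, and none of the 12 was called higher. Of 16 granulosa and cumulus cell markers, 8 were measured, summing to 395 in vitro and 281 in vivo, with Fshr and Inha called higher in vitro. No theca or stroma marker of 6 was measured, and of 5 blood and endothelium markers Pecam1 alone was, at 561 in vitro and 849 in vivo, and it was called lower in vitro. The part of somatic RNA in the changes of the numbered Zfp genes was not tested.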

How the data were processed

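The values are the authors' deposited table: per gene and group a signal, the mean of normalised reads over 3 samples, with a log2 ratio that the authors deposited as in vivo over in vitro and that is turned round here. Per the submitters' processing notes, BWA and build mm9 were used. Other steps, and the depth of each sample, are not given in the sources used here. Per the labels, cDNA was amplified from 10 ng of total RNA; intervals and tests cover no amplification error. The deposited ratio followed from both means after adding 0.599 to each, to within 8.41e-09. Gene identifiers matched RefSeq for 10875 of 10896 genes.

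The members and lists were chosen with earlier results of these data known. Each group mean adds up whole reads of 3 libraries, weighted by 1 step per library. Steps were found from low means, and means up to 300 were solved to 10 significant digits. In vitro 95.2% and in vivo 95.6% of these means had exactly 1 solution. Control values, shifted so that none should exist, had one in 16.5% of cases in vitro and 0.122% in vivo, so some in vitro solutions may be wrong. The in vitro libraries A, B and C had size factors of 1.09, 0.965 and 0.806, the in vivo ones 1.24, 1.13 and 0.885. Limma 3.58.1 (voom, R 4.3.3, 2-sided, Benjamini-Hochberg over 6675 genes) tested the reads. The recovery and the test were tested on simulated data.

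KRAB boxes were found with pyhmmer 0.12.3 by a profile of 146 family sequences at an E-value of 0.001. Fingers were found as 2 cysteines 2 to 4 residues apart, 12 residues, and 2 histidines 3 to 5 residues apart. Protein tables were not used here, and GENCODE coding sequences took their place. Named were called genes with a mean of at least 10 (up to 10 each way by size of change) and the 5 highest means. Genes by role list, genes called by limma, and the 3 on each side of the PPEE threshold were named too. Outside this rule, the called genes Zfp94, Zfp963 and Zfp781 were also named, as were genes described by their sequence or neighbours. Alternatives were other thresholds, offsets, library sizes, symbols and filters, and leaving out each library. Leaving out sharing genes and solving means up to 200 only were added after seeing the data. Some called genes of the list of KRAB partners are not reported here.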

Additional observations from a re-analysis of the deposited data

How the results depend on the processing

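By the authors' PPEE, 9 numbered Zfp genes were called higher in vitro at a PPEE below 0.01, in place of 14 at 0.05. Other settings left 10 to 15 genes higher and 10 to 18 lower, where the highest counts came from current symbols, which made 255 members. The median log2 change lay between 0.03 and 0.07 under all 6 alternatives. By limma, the count of genes higher in vitro, 1 with voom, was 6 with limma trend on log2(normalised reads + 1), 8 with an added 10, 2 with library sizes from summed reads and 2 with means up to 200 only. Leaving out 1 library at a time, it ranged from 0 to 14 higher and from 1 to 9 lower. The 14 and 9 came without in vitro library A, where calls over all genes were 888 higher and 462 lower, against 249 and 224. The cause was not tested. No paired analysis was possible because the deposited means carry no sample columns and the recovered libraries no replicate numbers. Reads per library exist only for means up to 300, so 71 numbered Zfp genes with a higher mean in a group have no spread.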
